A study of Homo sapiens with 32 samples.

Results

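A549 cells exposed to the mTOR kinase inhibitor INK128 were set against A549 cells exposed to the CDK4/6 inhibitor palbociclib, across all expressed genes. A549 is a human lung adenocarcinoma cell line. The members were the 8 libraries of the count table whose titles name A549 with INK128 or with palbociclib, out of 32 libraries in the series, and the 19550 genes of 60728 that passed the filter on low counts. INK128 was used at 200 nM and was renewed with the medium every 3 days, so the inhibitor was present throughout. Palbociclib was used at 5 μM, and drug-free medium was given from 72 h on. Untreated A549 cells were carried alongside, as were A549 cells given 100 nM doxorubicin for 72 h, which enter the fits only for the estimate of the spread. All RNA was taken 7 days after the start of treatment, so the comparison sets continuous mTOR inhibition against cells withdrawn from a CDK4/6 inhibitor, and the drug and its schedule cannot be told apart. The study describes the palbociclib condition as senescence and the INK128 condition as a diapause-like state. The second line of the series, SK-MEL-147, is a melanoma line that had the same agents at 100 nM INK128 and 1 μM palbociclib. For its INK128 cells the sample labels give SK-MEL-147, whereas the series' design text names SK-Mel-103, and this was not resolved here.

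As background, mTOR is the kinase at the core of the complexes mTORC1 and mTORC2, which couple nutrient and growth factor supply to protein synthesis, and INK128 blocks the kinase in both. CDK4 and CDK6 phosphorylate the retinoblastoma protein, which releases E2F transcription factors and lets cells enter S phase. Palbociclib holds the retinoblastoma protein in its repressive form, and cells kept in that state long enough can enter senescence, a lasting arrest with an enlarged lysosomal compartment and a secretory programme of cytokines and proteases. Cells under mTOR inhibition can also slow or stop dividing, with reduced biosynthesis.

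Each of the 8 libraries held between 29628397 and 33331334 gene counts. Libraries 2 and 2-2 carry the same replicate number in the labels and were summed, which gave 3 samples per group. Libraries 2-2 and 3 were much closer to each other than any other pair of the same group. Their mean chi-square per gene was 7.08 for INK128 and 8.69 for palbociclib, against 63.5 to 90.4 among the other INK128 pairs and 65.9 to 215 among the other palbociclib pairs. They still differed by more than sampling noise and were not counted as one library. The labels do not say that replicates came from separate cultures, so p-values measure the spread between these samples, which may be technical. Palbociclib replicate 1 stood apart from palbociclib replicates 2 and 3. It had 17.3% of its counts from the mitochondrial genome, against 9.02% and 9.71%, and far more interferon-stimulated RNA. With 2 and 2-2 summed, replicate 1 had the largest mitochondrial share in every A549 group: 18.3% with doxorubicin (against 8.48% and 9.35%), 14.3% with INK128 (13.1% and 12.1%) and 8.26% in untreated cells (7.23% and 7.62%). Among single libraries this did not hold for INK128, where library 2 had 14.8%, or for untreated cells, where library 2-2 had 8.42%. The counts and medians of the interferon-stimulated, MHC class I and secreted factor lists are therefore given with and without palbociclib replicate 1, as are the genes that sample moved most among those named. Levels are given as CPM (counts scaled to library size with TMM factors) for INK128 replicates 1, 2 and 3 and then palbociclib replicates 1, 2 and 3. Changes are log2 of INK128 over palbociclib with the standard error (SE) of the fit, and a gene is called when its adjusted p in edgeR's quasi-likelihood test is under 0.05. Unless untreated cells are named, a rise or a fall is of INK128 against palbociclib and not against untreated cells.

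Between the 2 drugs 4299 of 19550 genes were called higher with INK128 (22.0%) and 4000 were called lower (20.5%). A log2 change beyond 1 was found for 2050 of the higher and 1998 of the lower genes. The median change over all genes was 0.02. Lack of overlap was common: over all 19550 genes every INK128 sample lay above every palbociclib sample for 5246 and below for 4635. The 12 largest rises among protein-coding genes that met the level rule were ZNF367, CDT1, KIF15, PKMYT1, KIF18B, TICRR, TCF19, CKAP2L, KIF4A, KIF2C, AURKB and KIFC1. Several of these have well-known roles in replication (CDT1, TICRR) or in the mitotic spindle and kinetochore (AURKB and the kinesins). The 12 largest falls were the cystatins CST4, CST1 and CST2, the cornified envelope gene LCE3D, the interferon-stimulated genes IFI27, XAF1, IFI6, IFI44L, IFIT1 and OAS2, the lipopolysaccharide-binding protein gene LBP, and the prolactin-induced secretory protein gene PIP. The 12 rises ranged between 3.26 and 4.09 on the log2 scale. CST4 and LCE3D had 1 and 2 counts with INK128 and are given below as ratios of counts, and the other 10 falls ranged between -9.08 and -6.28. Without palbociclib replicate 1 the changes of the interferon-stimulated genes among them were smaller, between -5.53 for XAF1 and -4.67 for IFI27, with IFI44L at -4.86, and all kept their calls.

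**Figure D1:**
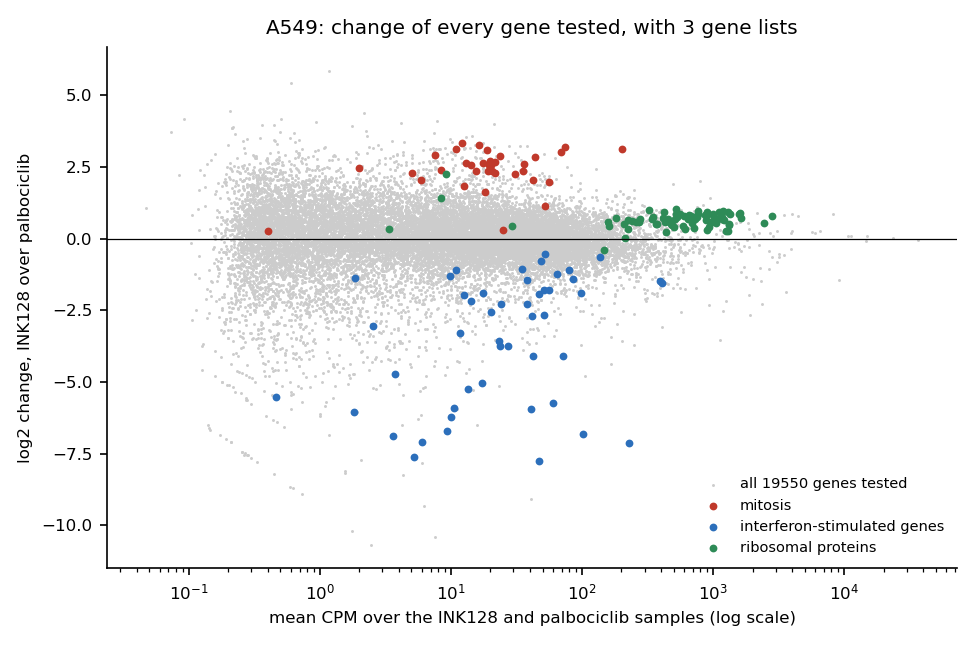
Log2 change of INK128 over palbociclib in A549 (vertical axis) against the mean CPM over both groups (horizontal axis, log scale) for the 19550 genes tested, with the mitosis, interferon-stimulated and ribosomal protein lists coloured. The mitosis list lay above 0 around a median of 2.55, the interferon-stimulated genes below it around -2.68, and the ribosomal protein genes formed a tight, highly expressed cloud around 0.67.

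**Figure D2:**
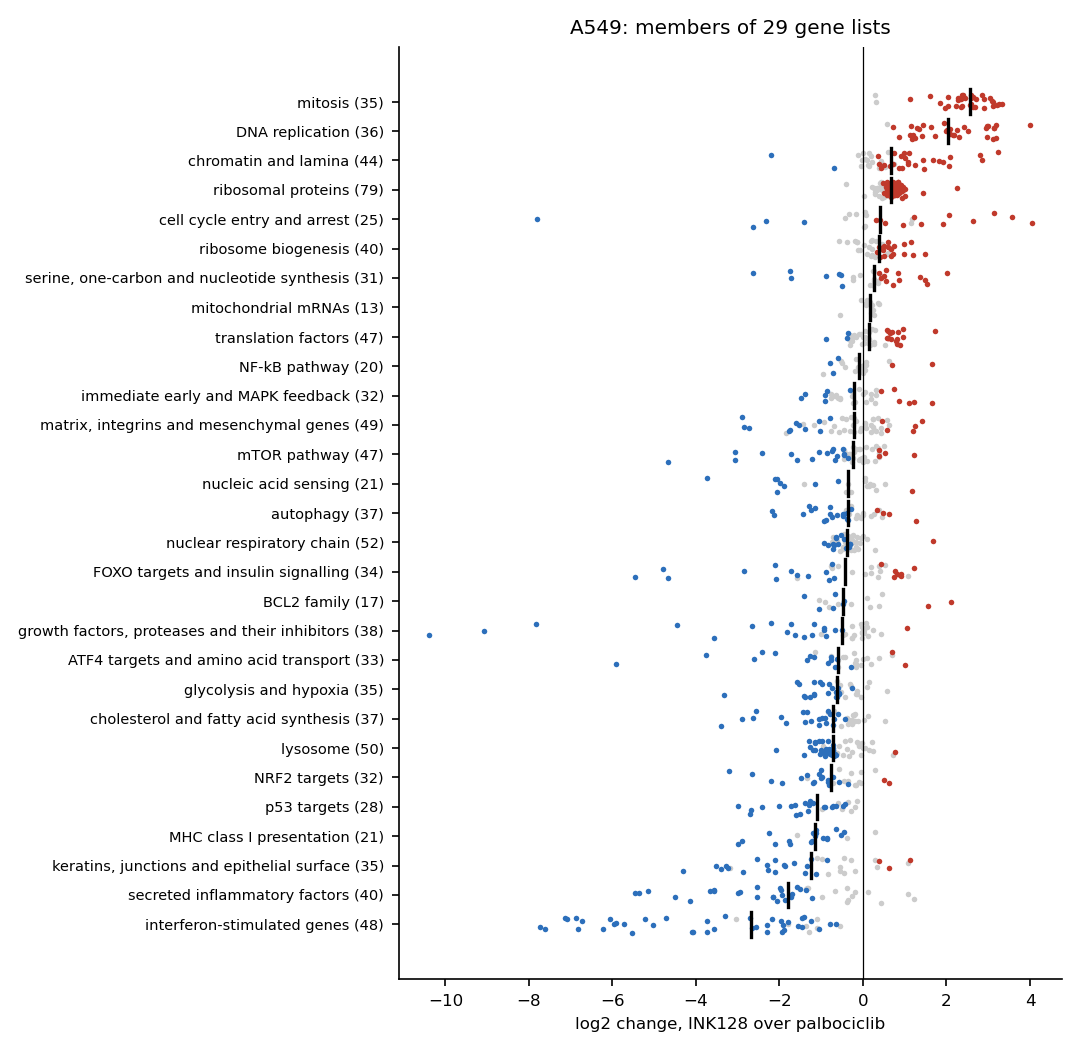
Log2 change of INK128 over palbociclib (horizontal axis) for the tested members of 29 gene lists, numbers tested in brackets, ordered by median (black bar). Red points were called higher, blue points lower, and grey points were not called; vertical scatter within a row is only for legibility. The medians run between 2.55 for mitosis at the top and -2.68 for interferon-stimulated genes at the bottom.

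Genes of DNA replication and mitosis were much more abundant with INK128 than with palbociclib, and their medians lay below untreated cells with both drugs. Of 36 DNA replication genes 35 were called higher and none lower, with a median log2 change of 2.05, against 0.02 over all genes. Of 35 mitosis genes 33 were called higher and none lower, with a median of 2.55. The uncalled members were PCNA (0.57) among the replication genes, and AURKA (0.32) and NUSAP1 (0.28) among the mitosis genes, named here because they were the exceptions. Against untreated cells the median of the replication list was -1.07 with INK128 and -2.96 with palbociclib, and that of the mitosis list was -1.58 with INK128 and -4.10 with palbociclib. The 2 comparisons with untreated cells share those untreated samples and share their treated samples with the direct comparison, so they are set side by side and not tested against each other. The summed level of the mitosis list was 1670.2, 1942 and 1533 CPM with INK128, 279, 351 and 299 CPM with palbociclib and 5229.5, 5058 and 4881 CPM in untreated cells. Every INK128 sample lay between the palbociclib and the untreated samples.

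MKI67, the gene of the proliferation marker Ki-67, had 103, 173 and 126 CPM with INK128, against 9.91, 15.6 and 17.9 CPM with palbociclib and 462, 430.0 and 461 CPM in untreated cells. The 3 groups did not overlap, and the change between the drugs was 3.21 (SE 0.50, adjusted p 0.00045). CDT1, which loads the MCM helicase at replication origins, had 32.4, 43.6 and 43.8 CPM with INK128 and 2.37, 2.66 and 2.46 CPM with palbociclib, a change of 3.99 (SE 0.31, adjusted p 9.7e-06). Its untreated level was 36.6, 40.8 and 37.5 CPM, so the INK128 samples overlapped the untreated samples for this gene, which was not the case for MKI67. MCM7, a subunit of that helicase, had 185, 242 and 222 CPM with INK128 and 43.1, 37.8 and 39.6 CPM with palbociclib (2.43, SE 0.18, adjusted p 7.4e-06). AURKB, the kinase of the chromosomal passenger complex, had 34.6, 31.9 and 22.3 CPM with INK128 and 3.43, 3.04 and 2.78 CPM with palbociclib (3.26, SE 0.34, adjusted p 4.1e-05). LMNB1, the lamin B1 gene whose loss is a common senescence marker, had 61.1, 61.7 and 48.9 CPM with INK128, against 6.96, 8.79 and 7.79 CPM with palbociclib and 114, 105 and 104 CPM in untreated cells. Its change between the drugs was 2.86 (SE 0.24, adjusted p 1.5e-05), and again no samples of the 3 groups overlapped.

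**Figure D3:**
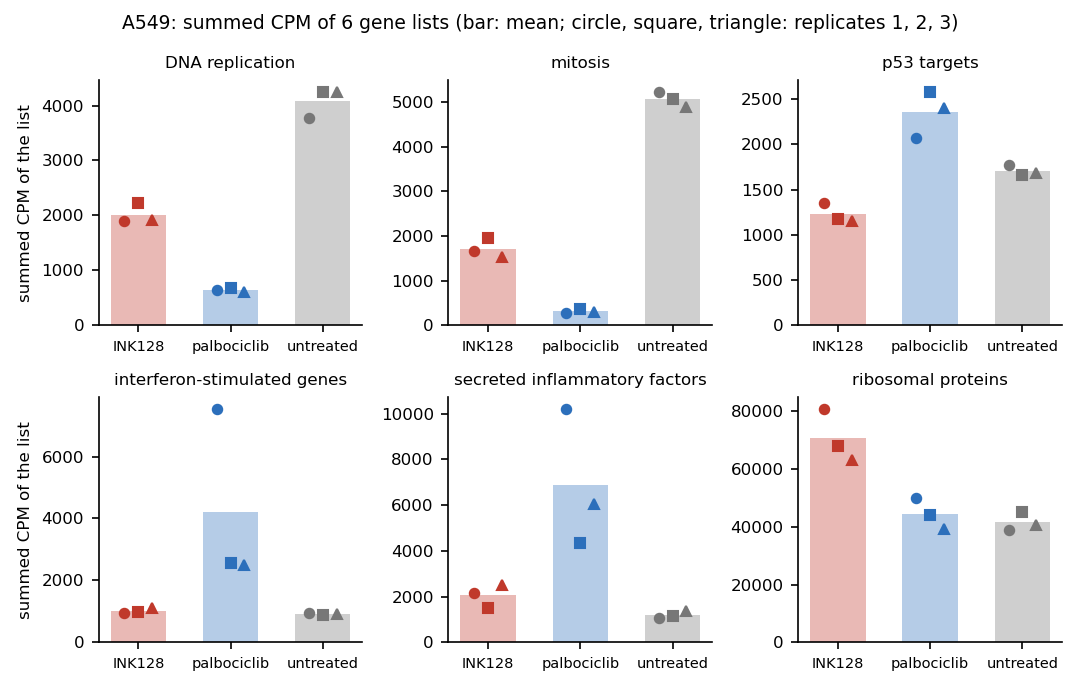
Summed CPM (vertical axis, from 0) of 6 gene lists in each A549 sample with INK128, palbociclib or no treatment; bars are means over 3 samples and symbols are replicates. In the replication and mitosis panels the INK128 samples sit between palbociclib and untreated cells. In the interferon panel palbociclib replicate 1 stands at 7536 CPM against 2559 and 2490.5 CPM in replicates 2 and 3.

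E2F factors and the DREAM complex are known to act on cell cycle genes through short words near the start site. The promoters of 4 genes that were higher with INK128 are shown as examples that hold such words. Whether these factors take part in the change was not tested. The sequences are the 150 bases before the start in RefSeq's annotation of GRCh38.p14, written 5′ to 3′ on the gene's strand. Capitals mark the E2F words TTTGGCGC, TTTGCCGC, TTTCGCGC and TTTCCCGC or their reverse complements in CDT1 and ZNF367, and the cell cycle genes homology region word TTTGAA in KIF4A and MKI67. The windows are chr16:88803639-88803788 on the plus strand for CDT1, chr9:96418371-96418520 on the minus strand for ZNF367, chrX:70289954-70290103 on the plus strand for KIF4A and chr10:128126424-128126573 on the minus strand for MKI67.
CDT1: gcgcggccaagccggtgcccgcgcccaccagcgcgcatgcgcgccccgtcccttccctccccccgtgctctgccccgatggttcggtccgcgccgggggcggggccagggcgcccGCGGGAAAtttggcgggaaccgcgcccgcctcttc
ZNF367: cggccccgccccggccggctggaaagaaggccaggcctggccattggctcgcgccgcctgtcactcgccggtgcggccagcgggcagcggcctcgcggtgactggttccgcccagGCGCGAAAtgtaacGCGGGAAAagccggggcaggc
KIF4A: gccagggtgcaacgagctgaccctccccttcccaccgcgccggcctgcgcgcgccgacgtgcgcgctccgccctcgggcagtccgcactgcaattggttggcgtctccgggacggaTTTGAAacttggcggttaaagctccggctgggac
MKI67: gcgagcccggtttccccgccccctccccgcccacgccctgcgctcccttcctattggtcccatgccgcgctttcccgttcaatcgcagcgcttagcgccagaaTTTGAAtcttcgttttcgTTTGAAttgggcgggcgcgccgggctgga
In 300-base windows with 250 bases before the start, 20 of 32 matched DNA replication genes held an E2F word on either strand (62.5%), against 908 of 27305 promoters with a distinct symbol (3.33%). The word TTTGAA was in 21 of 28 matched mitosis genes (75%), against 4212 of 27305 promoters (15.4%). The 27305 promoters were not limited to genes expressed in A549. No word is part of another, and a match is a run of letters, not a tested binding site.

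The regulators of cell cycle entry were mixed. Of 25 genes tested 12 were called higher and 4 lower with INK128, with a median of 0.40. The rises included the E2F family members E2F1 (2.07, SE 0.22), E2F2 (4.05) and E2F8 (3.57), the E-type cyclin gene CCNE2 (2.63) and the pocket protein gene RBL1 (1.91), while RB1 itself did not pass the test (0.05, adjusted p 0.78). The 4 falls were the D-type cyclin genes CCND1, CCND2 and CCND3 and the CDK inhibitor gene CDKN1A. CDKN1A, which encodes p21, had 94.7, 59.2 and 53.4 CPM with INK128, against 280.3, 555 and 451 CPM with palbociclib and 111, 88.2 and 106 CPM in untreated cells. Its change was -2.63 (SE 0.30, adjusted p 6.4e-05), and INK128 did not pass the test against untreated cells (-0.56, adjusted p 0.13). CCND1 had 194, 226 and 209 CPM with INK128 and 294, 689 and 679 CPM with palbociclib (-1.40, SE 0.36, adjusted p 0.0083), while CCND3 had 59.6, 35.6 and 39.6 CPM with INK128 and 185, 257 and 227 CPM with palbociclib (-2.31, adjusted p 4e-05). The targets of the drug palbociclib differed little: CDK4 was 0.40 higher (adjusted p 0.011) and CDK6 0.52 higher (adjusted p 0.037). The CDK6 call was lost when INK128 replicate 1, 2 or 3 or palbociclib replicate 1 or 2 was left out, with adjusted p between 0.053 and 0.13, and the CDK4 call was lost with library 2 in place of the sum of 2 and 2-2 (adjusted p 0.12). MYC, a driver of growth and biosynthesis, had 235, 282 and 261 CPM with INK128, against 104, 119 and 111 CPM with palbociclib and 149, 156 and 138 CPM in untreated cells, a change of 1.22 (SE 0.13, adjusted p 3.8e-05). All INK128 samples were above all samples of both other groups.

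Of 28 p53 target genes tested 21 were called lower with INK128 and none higher, with a median of -1.10. Against untreated cells their median was -0.53 with INK128 and 0.66 with palbociclib. TP53INP1, a pro-arrest and autophagy-linked target, had 9.57, 5.05 and 6.12 CPM with INK128, against 37.2, 63.6 and 63.3 CPM with palbociclib and 7.34, 4.63 and 6.83 CPM in untreated cells (-2.99, SE 0.31, adjusted p 4.2e-05). The INK128 and untreated samples overlapped, and the palbociclib samples stood above both. TIGAR, a fructose bisphosphatase that lowers glycolytic flux, changed by -2.68 (SE 0.28, adjusted p 4.3e-05), and RRM2B, the p53-inducible ribonucleotide reductase subunit, by -1.39 (SE 0.11, adjusted p 8.2e-06). GDF15, a secreted stress cytokine on the same list, did not pass the test (-0.99, adjusted p 0.11). It passed with the replicate block (-0.88, adjusted p 0.035) and without replicate 1 of all groups (-0.58, adjusted p 0.018).

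**Figure D4:**
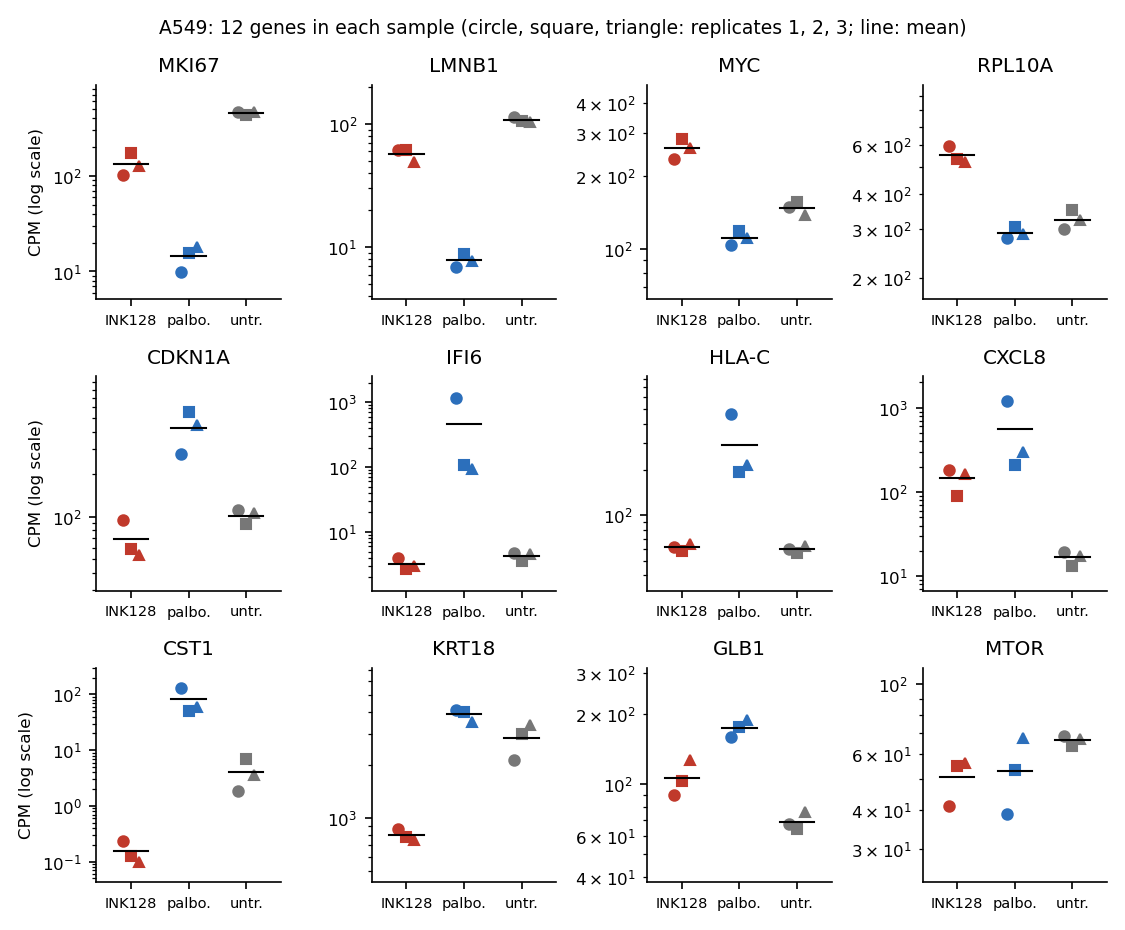
CPM (vertical axes, log scale, one range per gene) of 12 genes in each A549 sample with INK128, palbociclib or no treatment; symbols are replicates and lines are means. INK128 samples lie between the other groups for MKI67 and LMNB1, above both for MYC and RPL10A, near untreated cells for IFI6 and HLA-C, and below both for KRT18 and CST1. The MTOR samples of both drugs overlap.

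Interferon-stimulated genes, the antiviral set that cells switch on through interferon receptors, formed the list with the lowest median. Of 48 tested 41 were called lower with INK128 and none higher, with a median of -2.68. Without palbociclib replicate 1 the count was 40 and the median -2.01, and without replicate 1 of all groups it was 43 and -2.03. Against untreated cells the median was 0.44 with INK128 and 3.15 with palbociclib. The 7 uncalled members had values between -3.05 (MX2) and -0.55 (IFITM2). The summed level of the list was 953, 972 and 1110.4 CPM with INK128, 7536, 2559 and 2490.5 CPM with palbociclib and 959.8, 871 and 908 CPM in untreated cells. INK128 samples lay near the untreated ones, while every palbociclib sample stood above them, replicate 1 by far the most.

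IFI6, a mitochondrial and endoplasmic reticulum antiviral protein gene, had 4.05, 2.69 and 2.98 CPM with INK128, against 1166, 107 and 93.2 CPM with palbociclib and 4.7, 3.55 and 4.59 CPM in untreated cells. The change was -7.15 (SE 1.22, adjusted p 0.00081), and -4.98 (adjusted p 0.00053) without palbociclib replicate 1. IFIT1, which binds viral RNA that lacks a host cap, had 2.44, 0.928 and 2.17 CPM with INK128 and 492, 73 and 44.4 CPM with palbociclib. Its change of -6.83 (SE 1.15, adjusted p 0.00075) became -5.07 (adjusted p 0.0007) without that sample. IFI27 changed by -7.74 (adjusted p 0.0034) and by -4.67 (adjusted p 0.0052) without it, and OAS2, an oligoadenylate synthetase, by -6.72 (adjusted p 0.00023) and by -5.49 (adjusted p 0.00017). The sizes of these differences thus depended on that sample, while the calls did not. SAMD9 differed less between palbociclib samples. It had 3.18, 3.23 and 4.95 CPM with INK128 and 64.3, 46.3 and 40.4 CPM with palbociclib (-3.74, SE 0.23, adjusted p 4.3e-06).

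The upstream regions of 3 interferon-stimulated genes are shown because the shared word GAAANNGAAA, the core of the interferon-stimulated response element, can be seen in each; capitals mark it or its reverse complement. They are the 150 bases before the RefSeq start (GRCh38.p14), at chr1:27672193-27672342 on the minus strand for IFI6, chr10:89392473-89392622 on the plus strand for IFIT1 and chr14:94110586-94110735 on the plus strand for IFI27.
IFI6: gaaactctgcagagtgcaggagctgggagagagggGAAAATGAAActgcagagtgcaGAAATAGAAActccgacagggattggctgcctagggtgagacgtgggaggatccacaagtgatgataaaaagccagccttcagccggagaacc
IFIT1: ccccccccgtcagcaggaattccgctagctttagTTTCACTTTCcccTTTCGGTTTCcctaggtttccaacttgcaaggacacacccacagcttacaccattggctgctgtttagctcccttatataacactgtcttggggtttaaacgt
IFI27: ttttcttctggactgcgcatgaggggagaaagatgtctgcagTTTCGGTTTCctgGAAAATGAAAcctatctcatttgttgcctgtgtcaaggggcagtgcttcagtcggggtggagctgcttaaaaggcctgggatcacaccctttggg
Each window held 2 matches, beginning 115 and 93 bases before the start in IFI6, 116 and 103 in IFIT1 and 108 and 95 in IFI27. Of 39 matched interferon-stimulated genes 24 held the word in the 300-base window (61.5%), against 996 of 27305 promoters (3.65%).

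Of the genes that sense nucleic acids or signal from it 8 of 21 tested were called lower and 1 higher (median -0.35). Without replicate 1 of all groups 11 were lower and 5 higher, where 5922 and 5949 of all 20807 genes were. The interferon genes IFNB1, IFNL1, IFNL2 and IFNL3 did not pass the filter on low counts and were at 0 in every INK128 sample and at most 0.309 CPM with palbociclib. TLR3, the endosomal receptor for double-stranded RNA, had 2.28, 1.89 and 2.98 CPM with INK128 and 12.8, 9.44 and 8.47 CPM with palbociclib (-2.11, SE 0.21, adjusted p 3.1e-05). SAMHD1, a dNTP hydrolase that is itself interferon-inducible, changed by -2.05 (SE 0.32, adjusted p 0.00042) and by -1.47 without palbociclib replicate 1. The 1 rise was SOCS3, a feedback inhibitor of cytokine signalling (1.17, adjusted p 0.0084), a call lost with library 2 in place of the sum of 2 and 2-2 (1.08, adjusted p 0.1). Genes of the NF-kB pathway were called higher in 2 (10%) and lower in 3 (15%) of 20 cases, below the 22.0% and 20.5% over all genes. Their median of -0.09 turned to 0.08 without palbociclib replicate 1. With the replicate block 3 were higher and 6 lower, where 5676 and 5317 of all 19550 genes were. TRAF1, a signalling adaptor, was higher (1.64, adjusted p 0.0015) and NFKBIB, an inhibitor of the pathway, was lower (-0.71, adjusted p 0.00081).

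Of 21 MHC class I presentation genes, which cut, load and display peptides, 18 were called lower with INK128 and none higher, with a median of -1.14. Without palbociclib replicate 1 the numbers were 15 lower, 1 higher and a median of -0.97. Against untreated cells the median was 0.31 with INK128 and 1.46 with palbociclib. HLA-C, a classical class I heavy chain gene, had 61.6, 58 and 65.1 CPM with INK128, against 468, 194 and 213 CPM with palbociclib and 59.7, 56.3 and 62.9 CPM in untreated cells (-2.24, SE 0.29, adjusted p 0.00016), and -1.75 without palbociclib replicate 1. B2M, the class I light chain gene, had 317, 244 and 272 CPM with INK128 and 1585, 654 and 606 CPM with palbociclib (-1.77, SE 0.36, adjusted p 0.0022), and -1.20 without that sample. TAPBP, the tapasin gene of the peptide loading complex, changed by -1.12 (SE 0.14, adjusted p 0.00013). The classical HLA genes are close in sequence, and how the counting assigned reads shared between them was not tested.

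Secreted inflammatory factors of the kind released by senescent cells were lower with INK128 than with palbociclib, and their medians lay above untreated cells with both drugs. Of 40 tested 25 were called lower and none higher, with a median of -1.80. Against untreated cells the median was 1.72 with INK128 and 3.75 with palbociclib. Without palbociclib replicate 1 the numbers were 18 lower, 3 higher and a median of -0.99, so part of the size came from that sample. With the replicate block 31 were lower and 2 higher, where 5317 and 5676 of all 19550 genes were. CXCL8, the neutrophil chemoattractant interleukin 8, had 185, 90.7 and 165 CPM with INK128, against 1186, 208 and 297 CPM with palbociclib and 19.5, 13.4 and 17.4 CPM in untreated cells. Its change was -1.94 (SE 0.65, adjusted p 0.031), and -0.80 (adjusted p 0.21) without palbociclib replicate 1. The call was also lost without INK128 replicate 1, 2 or 3 (adjusted p 0.052, 0.11 and 0.071). The INK128 and palbociclib samples did not overlap, and all stood above the untreated samples. SERPINA1, the alpha-1 antitrypsin gene, had 2.14, 2.4 and 4.85 CPM with INK128 and 21.1, 22.7 and 27.8 CPM with palbociclib (-2.94, SE 0.34, adjusted p 7.5e-05). LBP, which presents lipopolysaccharide to CD14, had 0.1, 0.288 and 0.647 CPM with INK128, against 42.3, 21 and 29.7 CPM with palbociclib and 0.158, 0.2 and 0.402 CPM in untreated cells. Its change was -6.50 (SE 0.58, adjusted p 1.8e-05). The lack of overlap between the drugs was a condition for its place among the largest falls.

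Among growth factors, proteases and their inhibitors 18 of 38 were called lower and 1 higher with INK128, with a median of -0.49. The extremes were the type 2 cystatins, secreted cysteine protease inhibitors whose genes neighbour each other on chromosome 20 (GENCODE 29, GRCh38). CST1, at chr20:23747553-23751268, had 0.234, 0.128 and 0.0971 CPM with INK128, against 133, 51.3 and 59.8 CPM with palbociclib and 1.83, 6.81 and 3.51 CPM in untreated cells. CST2, at chr20:23823769-23826731, had 0.0335, 0.032 and 0.0971 CPM with INK128 and 17, 9.62 and 9.09 CPM with palbociclib. CST4, at chr20:23685640-23689040, had 1 count over all INK128 samples and 1704 counts over the palbociclib samples, a ratio of 0.00061 with an exact 95% interval of 1.5e-05 to 0.0034 that covers counting error only. The log2 changes were -9.08 (SE 1.02) for CST1 and -7.82 (SE 0.84) for CST2, both called (adjusted p 6.4e-05 and 4.8e-05), and INK128 lay below untreated cells as well (-4.79 for CST1 and -4.09 for CST2). All 3 cystatin genes were nearly silent with INK128. They are close copies of each other, so reads shared between them may be split or lost by the counting. LCE3D had 2 counts with INK128 and 2019 with palbociclib, a ratio of 0.001 (interval 0.00012 to 0.0037), and PIP changed by -6.28 (SE 0.65, adjusted p 3.8e-05). EREG, the EGF receptor ligand epiregulin, was the 1 gene called higher, with 101, 143 and 181 CPM with INK128, 78.8, 59.7 and 65.7 CPM with palbociclib and 228, 183 and 164 CPM in untreated cells (1.06, SE 0.20, adjusted p 0.0016).

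Ribosomal protein mRNAs were higher with INK128. Of 79 ribosomal protein genes 54 were called higher and none lower, with a median of 0.67. Against untreated cells the median was 0.76 with INK128 and 0.08 with palbociclib. Their share of all counts was 7.17% ± 0.871 with INK128, 4.29% ± 0.364 with palbociclib and 4.26% ± 0.257 in untreated cells (SD, n = 3 each). Each INK128 sample was above each palbociclib sample, and the exact two-sided permutation test gave p = 0.1, the smallest that 3 against 3 allows (0.2 adjusted over 2 shares). RPL10A had 597, 537 and 522 CPM with INK128, against 278, 304 and 288 CPM with palbociclib and 301, 349 and 322 CPM in untreated cells (0.93, SE 0.11, adjusted p 7.1e-05). Of 47 translation factor genes 16 were called higher and 3 lower (median 0.14). The share called higher was 34.0%, against 22.0% over all genes. With the replicate block 18 were higher and 8 lower, where 5676 and 5317 of all 19550 genes were. EEF1G was listed at 0. EEF1A1, the elongation factor that brings aminoacyl-tRNA to the ribosome, had 11469.7, 10304 and 9789 CPM with INK128 and 5556, 6091 and 5917 CPM with palbociclib (0.85, SE 0.12, adjusted p 0.00027). EEF1B2, its exchange factor, changed by 0.95 (SE 0.13, adjusted p 0.00025). EIF4E, the cap-binding protein, was lower (-0.36, adjusted p 0.02), a call lost without INK128 replicate 2 or 3 or palbociclib replicate 2 (adjusted p 0.086, 0.076 and 0.079). Also lower were the initiation factor genes EIF2S2 (-0.89, adjusted p 0.0003) and EIF2B2 (-0.38, adjusted p 0.0095). The ribosomal protein mRNAs and EEF1A1 belong to the class whose translation is known to be under mTOR control, and these counts measure abundance, not translation. Ribosomal protein genes and EEF1A1 have many processed pseudogenes, which may take part of their reads.

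Ribosome biogenesis genes, which build pre-ribosomes in the nucleolus, were called higher in 17 of 40 cases and never lower (median 0.39). With the replicate block 27 were higher and 2 lower, where 5676 and 5317 of all 19550 genes were. Both drugs lay below untreated cells, with medians of -0.58 for INK128 and -0.90 for palbociclib. FBL, the rRNA methyltransferase fibrillarin, had 291, 276 and 241 CPM with INK128, against 111, 90 and 88.8 CPM with palbociclib and 264, 319 and 286 CPM in untreated cells (1.48, SE 0.14, adjusted p 2e-05). The INK128 and untreated samples overlapped for this gene.

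Of 47 genes of the mTOR pathway itself 4 were called higher and 17 lower with INK128, with a median of -0.25. With the replicate block 10 were higher and 21 lower, where 5676 and 5317 of all 19550 genes were. MTOR did not pass the test, with 41.1, 55.2 and 56.1 CPM with INK128 and 38.8, 53.4 and 67.5 CPM with palbociclib (-0.07, SE 0.22, adjusted p 0.83). EIF4EBP1, the translational repressor that mTORC1 phosphorylates, did not pass either (-0.31, SE 0.27, adjusted p 0.39). DDIT4, the mTORC1 inhibitor REDD1, had 34.6, 20.8 and 25.5 CPM with INK128, against 318, 172 and 183 CPM with palbociclib and 126, 110.4 and 134 CPM in untreated cells (-3.06, SE 0.29, adjusted p 2.5e-05). The sestrins, stress-inducible inhibitors of mTORC1, were lower too. SESN2 changed by -2.42 (SE 0.26, adjusted p 4.9e-05) and SESN3 by -4.68 (SE 0.45, adjusted p 2.8e-05). RICTOR, the defining subunit of mTORC2, had 86.2, 95.2 and 113 CPM with INK128 and 50.6, 35.3 and 39.8 CPM with palbociclib (1.23, SE 0.16, adjusted p 0.00014). Among 34 FOXO targets and insulin signalling genes 8 were higher (23.5%, near the 22.0% over all genes) and 13 lower (38.2%, against 20.5%). Their median of -0.42 turned to 0.03 without palbociclib replicate 1. The receptor gene INSR was higher (0.80, adjusted p 0.001), and PIK3IP1, a PI3K inhibitor, was lower (-4.80, SE 0.54, adjusted p 6e-05). IRS2, an insulin receptor substrate, did not pass the test (0.52, adjusted p 0.18), though it did without replicate 1 of all groups (0.71, adjusted p 0.038).

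Of 50 lysosome genes 28 were called lower and 1 higher with INK128 than with palbociclib, with a median of -0.71. Against untreated cells their median was 0.22 with INK128 and 0.89 with palbociclib. GLB1, whose product gives the senescence-associated beta-galactosidase stain, had 89.9, 104 and 127 CPM with INK128, against 159, 176 and 188 CPM with palbociclib and 67.5, 64 and 75.8 CPM in untreated cells (-0.71, SE 0.14, adjusted p 0.0018). INK128 thus lay between the other groups for this gene. GLA, alpha-galactosidase A, instead fell below untreated cells with both drugs and had 46.5, 47.1 and 50.7 CPM with INK128, 99, 116 and 103 CPM with palbociclib and 143, 162 and 172 CPM in untreated cells. Of 37 autophagy genes 19 were called lower and 4 higher with INK128 than with palbociclib (median -0.36). Their median against untreated cells was 0.09 with INK128 and 0.41 with palbociclib. WIPI1, a phosphoinositide-binding protein of the forming autophagosome, had 11.5, 8.64 and 9.58 CPM with INK128, 42.1, 44.5 and 43.7 CPM with palbociclib and 4.13, 5.48 and 5.39 CPM in untreated cells (-2.14, SE 0.14, adjusted p 4.9e-06). ATG4A, a protease that processes ATG8 proteins, changed by -2.18 (SE 0.13, adjusted p 4e-06), and OPTN, a selective autophagy receptor, by -1.24 (SE 0.10, adjusted p 1.3e-05). ULK2, an initiating kinase of autophagy, went the other way (0.62, SE 0.11, adjusted p 0.00095).

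Several metabolic lists were lower with INK128 than with palbociclib. Cholesterol and fatty acid synthesis genes were called lower in 21 of 37 cases and never higher (median -0.71), and against untreated cells the median was -0.68 with INK128 and -0.10 with palbociclib. STARD4, a sterol carrier, had 2.74, 2.14 and 1.13 CPM with INK128, against 25.5, 22.7 and 15.8 CPM with palbociclib and 13, 16.1 and 12.9 CPM in untreated cells (-3.41, SE 0.32, adjusted p 2.4e-05). SCD, the stearoyl-CoA desaturase, had 176, 155 and 166 CPM with INK128 and 639, 1450.4 and 844 CPM with palbociclib (-2.56, SE 0.32, adjusted p 0.00013). Of 35 genes of glycolysis and hypoxia 22 fell and none rose (median -0.62), among them PGAM1, phosphoglycerate mutase (-1.41, SE 0.14, adjusted p 3.4e-05), and EGLN3, an oxygen-sensing prolyl hydroxylase (-3.32, SE 0.36, adjusted p 5.5e-05). Among 52 nuclear respiratory chain genes 14 fell (26.9%, against 20.5% over all genes) and 1 rose, with a median of -0.37. The count of lower genes was 26 with the replicate block, where 5317 of all 19550 genes were lower, and 32 without replicate 1 of all groups, where 5922 of 20807 were lower. UQCRC2, a core subunit of complex III, changed by -0.83 (SE 0.12, adjusted p 0.00031). None of the 13 mitochondrial mRNAs was called (median 0.17). Without palbociclib replicate 1 none was called either (median 0.61), and without replicate 1 of all groups 9 were higher. The mitochondrial share of counts was 13.2% ± 1.08 with INK128, 12.02% ± 4.62 with palbociclib and 7.70% ± 0.518 in untreated cells (SD, n = 3 each, exact permutation p = 0.7 between the drugs). The difference of 1.15 percentage points was 3.81 without palbociclib replicate 1 and turned to -0.35 without palbociclib replicate 2 and to -0.0035 without palbociclib replicate 3.

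Targets of ATF4, the amino acid stress factor whose synthesis mTORC1 is known to promote, fell for 14 of 33 genes and rose for 2 (median -0.59). NUPR1, a stress-induced chromatin protein gene, had 0.301, 0.432 and 0.291 CPM with INK128, against 23.3, 21.7 and 20.1 CPM with palbociclib and 1.89, 6.37 and 6.29 CPM in untreated cells (-5.93, SE 0.46, adjusted p 8.7e-06). GARS1, glycyl-tRNA synthetase, changed by -1.17 (SE 0.11, adjusted p 2.9e-05), while the amino acid transporter gene SLC38A2 rose (1.01, SE 0.20, adjusted p 0.0021). In serine, one-carbon and nucleotide synthesis 12 of 31 genes rose and 7 fell against palbociclib (median 0.27). Their median against untreated cells was -0.62 with INK128 and -0.82 with palbociclib. The rises were 38.7%, against 22.0% over all genes, and the falls 22.6%, near the 20.5% over all genes. The serine pathway gene PSAT1 was lower (-1.73, SE 0.13, adjusted p 7.4e-06), as was the mitochondrial folate enzyme gene MTHFD2 (-0.89, SE 0.15, adjusted p 0.00088). IMPDH2, a rate-limiting enzyme of guanine nucleotide synthesis, was higher (1.53, SE 0.14, adjusted p 2.1e-05). NRF2 targets, which are highly expressed in A549 cells because their repressor KEAP1 is inactive in this line, fell for 18 of 32 genes and rose for 2 (median -0.77). ALDH3A1, an aldehyde dehydrogenase, had 500.1, 457 and 619 CPM with INK128, 2715, 3594 and 3576 CPM with palbociclib and 1578, 1633 and 2235 CPM in untreated cells (-2.65, SE 0.19, adjusted p 7.4e-06).

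Of 44 chromatin and lamina genes 26 were called higher and 2 lower with INK128 than with palbociclib (median 0.68). Their median against untreated cells was -0.38 with INK128 and -0.88 with palbociclib. EZH2, the H3K27 methyltransferase, changed by 2.07 (SE 0.14, adjusted p 6.5e-06), HELLS, a chromatin remodeller, by 2.09 (SE 0.15, adjusted p 6.6e-06) and LBR, the lamin B receptor, by 1.43 (SE 0.10, adjusted p 6.5e-06). The linker histone gene H1-2 and HMGB3 were the 2 falls. In the BCL2 family 2 of 17 genes were higher (11.8%, against 22.0% over all genes) and 6 lower (35.3%, against 20.5%), with a median of -0.48. Without palbociclib replicate 1, 3 were higher and 4 lower (median -0.08), where 4238 and 4175 of all 20026 genes were. BCL2L1, which encodes the anti-apoptotic BCL-XL, had 131, 117 and 122 CPM with INK128, against 321, 329 and 341 CPM with palbociclib and 192, 254 and 237 CPM in untreated cells (-1.42, SE 0.12, adjusted p 1.6e-05). BMF, a pro-apoptotic BH3-only gene, rose by 2.10 (SE 0.35, adjusted p 0.00064).

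Of 35 tested keratin, junction and epithelial surface genes 19 were called lower and 3 higher against palbociclib (median -1.24), and against untreated cells the median was -0.66 with INK128 and 0.37 with palbociclib. KRT18, a simple epithelial keratin, had 865, 777 and 746 CPM with INK128, against 4127, 4015 and 3532 CPM with palbociclib and 2131, 3008 and 3383 CPM in untreated cells (-2.29, SE 0.17, adjusted p 8e-06). MUC13, a membrane mucin, had 5.22, 5.21 and 5.73 CPM with INK128, 23.6, 25.6 and 20 CPM with palbociclib and 9.84, 11 and 9.81 CPM in untreated cells (-2.10, SE 0.14, adjusted p 6.5e-06). CLDN2, a pore-forming claudin, changed by -2.10 as well (SE 0.14, adjusted p 5.7e-06). KRT18 has processed pseudogenes that can share its reads. Of 49 matrix, integrin and mesenchymal genes 5 rose and 11 fell (22.4%, near the 20.5% over all genes), or 11 and 20 without replicate 1 of all groups, where 5949 of all 20807 genes rose and 5922 fell, with the laminin chain gene LAMA3 higher (1.24, SE 0.17, adjusted p 0.00018) and the integrin gene ITGA1 lower (-1.76, SE 0.23, adjusted p 0.00016). Immediate early and MAPK feedback genes were called in 6 cases each way out of 32 (18.8%), near the 22.0% higher and 20.5% lower over all genes. SPRY2, a feedback inhibitor of receptor tyrosine kinase signalling, was higher (1.21, SE 0.15, adjusted p 0.00011), and NR4A1, an orphan nuclear receptor, was lower (-1.39, SE 0.38, adjusted p 0.013), a call lost without INK128 replicate 2 (-1.14, adjusted p 0.054). With the replicate block 8 of the list were higher and 10 lower, where 5676 and 5317 of all 19550 genes were.

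Cell type markers were read as sums over lists. The lung epithelial list held EPCAM, CDH1, KRT7, KRT8, KRT18, KRT19, MUC1, NAPSA, AKR1B10 and NQO1. A sum follows its most abundant members, and KRT18, described above, is among them, so a lower sum is not a measure of identity. The 10 lung epithelial markers summed to between 6407 and 7281 CPM with INK128, 15622 and 18606 CPM with palbociclib and 11265 and 17160 CPM in untreated cells. The 14 leukocyte markers summed to between 14.1 and 18.4 CPM with INK128 and 11.1 and 23 CPM with palbociclib, with CD3E, CD3D and MS4A1 at 0 in both groups. The 10 fibroblast markers summed to between 9.35 and 10.9 CPM with INK128 and 26.7 and 35.4 CPM with palbociclib, the 9 endothelial markers to at most 4.89 CPM with INK128 and 7.78 CPM with palbociclib, and the 10 melanocyte markers to between 16.7 and 33.5 CPM with INK128 and 31.8 and 34.8 CPM with palbociclib. The fibroblast and melanocyte markers include genes that epithelial cancer lines can express, and the part of other cells in the results was not tested. In these bulk samples fewer cells of a state and less RNA per cell cannot be told apart, so a level between 2 groups may come from a mixture of cells.

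In SK-MEL-147, with 4 samples per group, the same contrast, from separate libraries at other doses, gave 5108 of 21761 genes higher (23.5%) and 4796 lower (22.0%). These figures and those that follow come from a fit over both lines, which gave A549 3743 genes higher and 5199 lower and in which the median A549 change was -0.08, against 0.02 in the fit of A549 alone. Of the 3743 A549 rises 2379 were also higher in SK-MEL-147 (63.6% of the A549 rises and 46.6% of the SK-MEL-147 rises) and 131 were lower. Of the 5199 A549 falls 2463 were also lower in SK-MEL-147 (47.4% and 51.4%) and 295 were higher. The medians in SK-MEL-147 were 1.23 for DNA replication, 2.28 for mitosis, -2.47 for interferon-stimulated genes, -1.25 for MHC class I presentation, -1.62 for secreted inflammatory factors and 0.86 for ribosomal proteins. The SK-MEL-147 palbociclib samples stood far apart on some of these genes, with IFI6 between 71 and 1045 CPM and MKI67 between 0.0294 and 44.2 CPM, and every INK128 sample lay below them for IFI6 and above them for MKI67. The SK-MEL-147 medians of p53 targets (-0.15), ribosome biogenesis (-0.20), cholesterol and fatty acid synthesis (-0.21) and epithelial genes (-0.06) were nearer to 0 than in the fit of A549 alone or on the other side of it. These medians cover the members tested in A549, and a member without counts in SK-MEL-147 enters at 0. A median near 0 may thus come from genes not expressed in that line, which was not tested.

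The change itself differed between the lines for 3331 of 21761 genes (15.3%), of which 1329 were higher and 2002 lower in A549. With the replicate block the number was 5370, of which 2232 were higher and 3138 lower. With TMM computed within each line the split was 1812 higher and 1517 lower, so the direction of the imbalance depended on the scaling across lines. Among the 12 largest rises the difference passed the test for CDT1 and TICRR, which rose more in A549, and it did not pass for the other 10. Among the 12 largest falls it passed for LBP, whose mean SK-MEL-147 level was only 0.124 CPM with INK128 and 0.401 CPM with palbociclib. The interferon genes IFI6 (-7.26 in A549 and -7.31 in SK-MEL-147), IFIT1 (-6.95 and -6.70) and OAS2 (-6.85 and -7.70) did not pass, with SEs of the difference of 1.31, 1.51 and 1.85, so a sizeable difference could have been missed. CST1, CST2, CST4 and PIP had no counts in any SK-MEL-147 sample of either drug, so no change can be given there. Among genes picked after their values were seen, CDKN1A changed by -2.74 in A549 and by -0.02 in SK-MEL-147, with an adjusted p of 0.00011 for the difference. KRT18 changed by -2.40 in A549 and by -0.06 in SK-MEL-147. LAMA3 was higher with INK128 in A549 (1.13) and lower in SK-MEL-147 (-2.02), whereas NR4A1 was lower in A549 (-1.50) and higher in SK-MEL-147 (2.36). LAMA3 was scarce in SK-MEL-147, with a mean of 0.324 CPM with INK128 and 1.32 CPM with palbociclib.

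**Figure D5:**
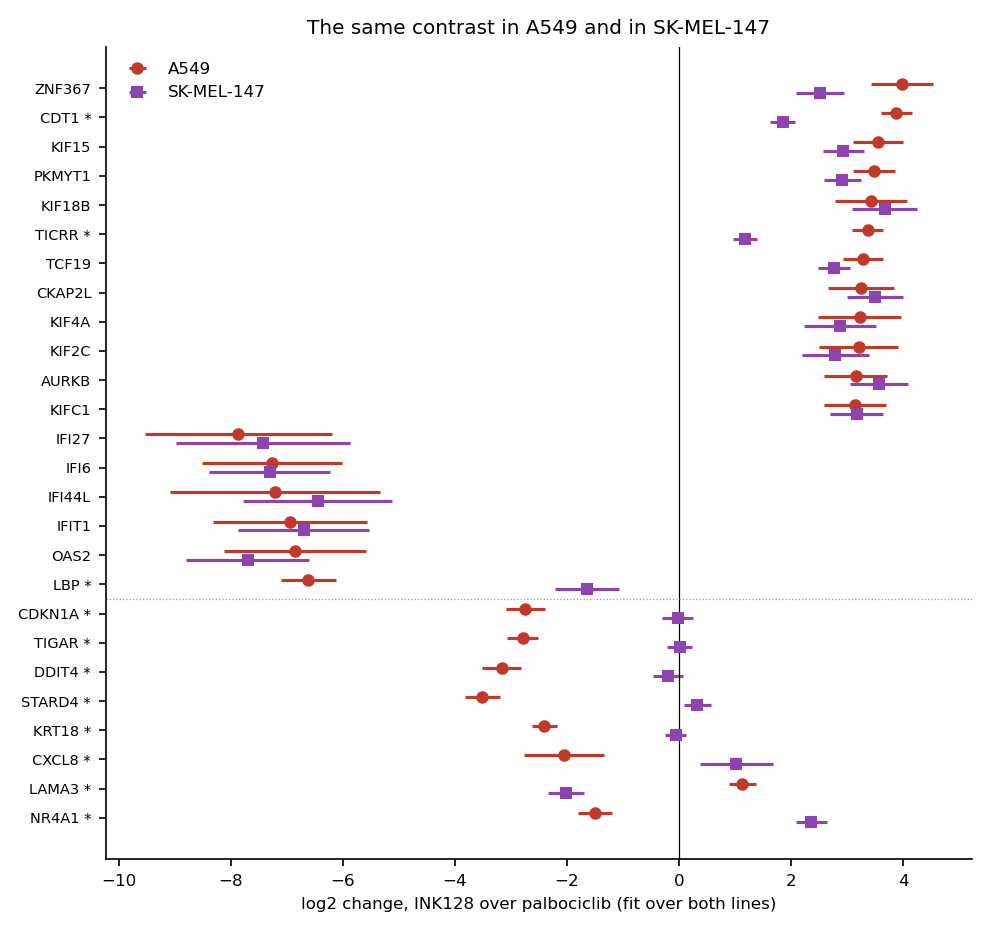
Log2 change of INK128 over palbociclib (horizontal axis) in A549 (circles) and SK-MEL-147 (squares) with standard errors, from the fit over both lines. Genes above the dotted line are the largest changes in A549 that had counts in SK-MEL-147, except XAF1 and LCE3D, whose SK-MEL-147 counts were near 0; genes below it were picked after their values were seen, and an asterisk marks an adjusted p under 0.05 for the difference. The mitotic and interferon genes lie together in both lines, whereas CDKN1A, TIGAR, DDIT4, STARD4 and KRT18 lie near 0 in SK-MEL-147 only.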

How the data were processed

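RNA was measured by bulk RNA sequencing of poly(A) libraries made with a stranded kit, per the labels' protocols. The authors deposited raw read counts per gene. STAR 2.7.10a, featureCounts and GRCh38.p13 are named in the submitters' processing notes, and the strand setting of the counting is not given in the sources used here, so a gene and its antisense partner may share reads.

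From these counts, libraries 2 and 2-2 of each A549 group were added, which left 3 samples per group. Genes passed edgeR's filterByExpr over the 4 A549 groups, untreated and doxorubicin included, so that all share 1 estimate of the spread. Fits used R 4.3.3, edgeR 4.0.16 with limma 3.58.1, TMM scaling, the quasi-likelihood test in its older form and Benjamini-Hochberg adjustment over 19550 genes. The difference between lines came from 1 fit over all 8 groups and 21761 genes. The SE is the log2 change divided by the square root of the F statistic. Shares were tested with exact permutation tests (scipy 1.17.1), and figures drawn with matplotlib 3.10.9. The scripts were tested on simulated data. Of 60728 gene IDs 60659 had a symbol, and types and coordinates are from GENCODE 29 (58496 matched).

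INK128 and palbociclib samples with the same replicate number deviated together from their group means (correlations 0.633, 0.47 and 0.501). Between number 1 and the other numbers the correlations were -0.595 to -0.406. INK128 replicate 2 with palbociclib replicate 3 gave 0.376, and INK128 replicate 3 with palbociclib replicate 2 gave 0.149. The numbers thus set replicate 1 apart and tell 2 from 3 less clearly. The main fit does not use the pairing, and the fit with that block is an alternative. Others were DESeq2 1.42.0 and its size factors, library size alone, TMM without mitochondrial genes, other filters, fewer groups in the fit, other uses of 2 and 2-2, and each replicate left out. Named genes were the 12 largest changes per direction (protein-coding, called, without overlap between the drugs, and averaging 10 CPM or more in the higher group), up to 3 called members per direction of each list with the smallest p and at least 5 CPM, and 15 fixed genes; others are examples chosen after their values were seen. The members, lists and tests were chosen with earlier results of these data known. Some genes are not reported here.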

Additional observations from a re-analysis of the deposited data

Results flagged for a closer look

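The genes below were picked out because the change of INK128 over palbociclib differed between A549 and SK-MEL-147 by the test of the difference itself (A549 minus SK-MEL-147, log2). The replication genes CDT1 (2.03) and TICRR (2.19) rose in both lines and more in A549. LBP differed by -4.97. The genes named next were chosen after their values were seen. CDKN1A differed by -2.72, TIGAR by -2.8, DDIT4 by -2.97, STARD4 by -3.85 and KRT18 by -2.34. LAMA3 differed by 3.15 and NR4A1 by -3.86, with opposite signs in the 2 lines. CXCL8 differed by -3.08 (adjusted p 0.03), which did not pass with libraries 2 and 2-2 kept apart (-2.88, adjusted p 0.092). The lines also differed in drug doses, and line and dose cannot be told apart.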

How the results depend on the processing

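With the replicate block 5676 genes were higher and 5317 lower, and the difference between lines rose to 5370 genes. Leaving out 1 sample gave 3289 to 4238 higher and 3080 to 4175 lower genes, and leaving out replicate 1 of all groups 5949 and 5922. Library size alone gave 4685 and 3441, DESeq2 4416 and 4547. With 2-2 added to 3, chosen after seeing the data, 3398 and 3424 were called. Counting only changes over 1 on the log2 scale left 2050 and 1998. Leaving out 1 sample gave 2519 to 3591 genes for the difference between lines, and shares differing by -0.35 to 3.81 percentage points for the mitochondrial genome and by 2.39 to 3.21 for ribosomal protein genes; the mitochondrial difference turned to -0.35 without palbociclib replicate 2 and -0.0035 without replicate 3. Of 149 called named genes 127 kept direction and call in all 20 settings, 22 lost the call in at least 1 and none changed sign. DESeq2 gave an adjusted p for 150 of the 154 named genes, and the others were not scored in that setting. Leaving out 1 sample moved the uncalled genes up to 0.0802 for RB1 (without INK128 replicate 3) and down to -0.27 for MTOR (without palbociclib replicate 1) and -0.509 for EIF4EBP1 (without palbociclib replicate 3). MTOR turned to 0.00393 (library 2 alone), 0.0651 (without INK128 replicate 1) and 0.113 (without palbociclib replicate 3). RB1 turned to -0.00872 (2-2 alone), -0.0368 (without palbociclib replicate 1) and -0.0532 (without replicate 1 of all groups), and EIF4EBP1 to 0.0408 (without palbociclib replicate 1). The line difference of KIFC1 turned to 0.0155 (DESeq2 size factors), 0.148 (2 and 2-2 apart) and 0.104 (TMM within each line), and that of IFI27 to 0.496 (block) and 0.0747 (2 and 2-2 apart). The causes were not tested. Depth limits the genes near 0 counts, such as the cystatins with INK128.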

Other observations

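The genes in this section were chosen after their values were seen. Several developmental and architectural genes were higher with INK128. HMGA2, a chromatin architectural protein gene, had 95.2, 119 and 110.4 CPM with INK128 and 20.9, 12.1 and 13.3 CPM with palbociclib (2.81, SE 0.30, adjusted p 4.3e-05), against a mean of 42.4 CPM in untreated cells. The Hedgehog effector GLI2 (1.88, adjusted p 9.5e-05) and the Hedgehog receptor and target PTCH1 (2.02, adjusted p 0.00027) were also higher. The nuclear noncoding RNA NEAT1, the scaffold of paraspeckles, had 1321, 1011 and 1479 CPM with INK128 and 503, 195 and 249 CPM with palbociclib (2.01, adjusted p 0.0033), and MALAT1 changed by 1.71 (adjusted p 0.0005). The fibrinogen chain genes FGA (-3.42), FGB (-3.72) and FGG (-4.80), which neighbour each other and are acute-phase genes of liver, were all lower with INK128. FGG had 10.5, 3.69 and 7.83 CPM with INK128 and 294, 147 and 167 CPM with palbociclib.

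Calls were spread unevenly over gene types. Over all genes 22.0% were higher and 20.5% lower with INK128. Of 14058 protein-coding genes 2759 were higher (19.6%) and 3403 lower (24.2%), and of 1894 processed pseudogenes 454 (24.0%) and 230 (12.1%). Of 1005 genes typed antisense 294 were higher (29.3%) and 92 lower (9.15%), and of 962 lincRNA genes 271 (28.2%) and 116 (12.1%). For 115 sense intronic genes the numbers were 42 (36.5%) and 3 (2.61%). Nuclear protein-coding genes held 73.4%, 75.6% and 77.1% of counts in INK128 replicates 1, 2 and 3, and 72.8%, 82.7% and 82.2% in palbociclib replicates 1, 2 and 3. Whether unspliced RNA or shared reads take part in these numbers was not tested.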
